A study of Mus musculus with 8 samples.

Results

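The 9 genes described here belong to the aryl hydrocarbon receptor (Ahr) system: the receptor gene Ahr, its partner genes Arnt and Arnt2, the chaperone genes Hsp90ab1 and Ptges3, and Ahrr, Tiparp, Cyp1a1 and Cyp1b1, which the receptor is known to induce. They were taken by gene symbol from the deposited RNA-seq count table, in which each has 1 row, and make up 9 of its 19191 rows. Of the 9 genes, 7 passed the filter on low counts and were tested, while Cyp1a1 and Cyp1b1 did not pass it. Libraries labelled KO held far fewer Ahrr counts than those labelled WT, at a 21.1-fold lower level, and their levels were 1.38-fold lower for Tiparp and 1.61-fold higher for Arnt2 (2 libraries each). Counts over Ahr itself and those of Arnt, Hsp90ab1 and Ptges3 were close in both genotypes.

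Without ligand, the receptor sits in the cytoplasm in a complex with the chaperone Hsp90, of which Hsp90ab1 encodes the beta form, and its co-chaperone p23, the product of Ptges3. A dietary, microbial or environmental ligand releases it into the nucleus, where it pairs with Arnt and binds DNA elements with the core letters GCGTG. The induced products include 2 that restrain the receptor, the repressor Ahrr, which competes for Arnt, and the ADP-ribosylase Tiparp, and the cytochromes Cyp1a1 and Cyp1b1, which oxidise its ligands. In the gut, ligands from diet and bacteria reach lymphocytes of the lamina propria directly, and several lymphocyte types there depend on Ahr.

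The samples were regulatory T (Treg) cells, suppressive CD4 T cells that express Foxp3, sorted by flow cytometry from large intestine lamina propria in C57BL/6 animals. WT libraries had the genotype Ahrf/+ Foxp3Yfp-Cre and KO libraries Ahrf/- Foxp3Yfp-Cre, with 2 libraries each, so that every library carried 1 floxed (f) allele and a Cre recombinase made from the Foxp3 locus. WT Treg cells thus retained the + allele, whereas the null allele of KO mice was present in every cell, and differences that arise in Treg cells and in the tissue around them cannot be told apart. The labels give neither the age of the mice nor whether replicates are separate animals or pools, and the spread behind each p-value may thus be technical. In bulk RNA, fewer cells of a type and less RNA per cell cannot be told apart.

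Total gene counts per library ran from 26862922 to 62402450, and replicate 2 was the deeper library in each genotype. Libraries also stood apart by replicate number in the share of Lars2 (0.0367% and 0.0633% in replicates numbered 1, 1.66% and 0.724% in those numbered 2). All 9 Treg markers were present in every library, with Foxp3 at 248 to 279 CPM (counts scaled to a library total of 1000000), Ctla4 highest and a sum of 7680 and 8010 CPM in WT and 8060 and 8860 in KO. Sums of markers of other cells, with the highest gene of each list, were 27.4 and 28.3 CPM in WT and 28.4 and 44.2 in KO for 11 epithelial genes (Epcam), 71.3 and 153 against 49.9 and 111 for 11 myeloid genes (Lyz2), and 24.8 and 25.2 against 17.3 and 23.3 for 7 B cell genes (Cd79b). They were 120 and 179 against 115 and 182 for 9 stromal and endothelial genes, led by Pecam1 at 104 to 115. Col3a1 of that list stood at 5.55 CPM (WT) and 3.97 (KO) in replicates numbered 1, and at 38.5 and 44.3 in those numbered 2. Sums were 21.6 and 37.1 against 13.5 and 25 for 6 innate lymphoid genes (Il23r), and 5.51 and 6.11 against 6.23 and 7.41 for Cd8a and Cd8b1. None of the markers found was at 0 in all libraries, but 5 epithelial genes (Krt8, Krt19, Krt20, Car1 and Tff3) and the innate lymphoid gene Ncr1 were at 0 in at least 1. The 9 tested epithelial genes were mixed, with 6 higher in both KO libraries than in both WT libraries, 2 lower (Epcam, at 14.7 and 14.8 CPM against 12.1 and 13.6, and Krt18), and a median log2 fold change of 1.03. Among the 6 higher were Krt8 (0 and 0.128 CPM in WT, 1 and 3.82 in KO), Car1 (0 and 0.321 against 0.903 and 3.76) and Krt19 (0.149 and 0 against 0.549 and 2.41). Of the tested myeloid genes 9 of 10 had a lower estimate in KO (median -0.54), as had 4 of 4 innate lymphoid genes (median -0.56) and 5 of 7 B cell genes (median -0.33).

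Ahrr, the repressor that shuts off the receptor, differed most among the 9 genes. It is annotated on the minus strand of chromosome 13 from 74348566 to 74429779 (mm9). The libraries held 196 and 417 Ahrr counts in WT and 12 and 14 in KO, which is 7.3 and 6.55 CPM against 0.391 and 0.265 CPM after TMM scaling (the scaling used for all single-gene CPM below). Both KO libraries lay far below both WT libraries, and the groups did not overlap. A small signal nevertheless remained in KO, because 12 and 14 counts have exact 95% Poisson intervals of 6.2 to 21 and 7.65 to 23.5 counts, above the 3 counts that a count of 0 allows. WT averaged 6.92 ± 0.53 CPM, against 0.328 ± 0.0893 for KO (SD, n = 2), a 21.1-fold difference, and the ratio of the pooled counts had a counting interval of 15.1 to 34.4-fold. Ahrr had the lowest p of all tested genes in both edgeR and DESeq2. The log2 fold change in edgeR's quasi-likelihood test was -4.42 ± 0.31 (SE), with a 95% interval of -5.2 to -3.65.

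Whether Ahrr passed depended on the test. DESeq2 called it lower (adjusted p = 3.11e-18, at most 9.14e-06 without any 1 library), and the value in the authors' deposited table was 1.32e-08. With edgeR's quasi-likelihood test the adjusted p was 0.218 with the filter on low counts and 5.41e-07 without it. It was 0.0145 without KO replicate 1 and 0.0225 without KO replicate 2, against 1.00 without WT replicate 1 and 0.757 without WT replicate 2. Summed myeloid and innate lymphoid markers, given above, overlapped between genotypes but were lower in KO within each replicate number. B cell marker sums were lower in KO without overlap (24.8 and 25.2 CPM in WT, 23.3 and 17.3 in KO). Sums of the epithelial genes and of Cd8a and Cd8b1 were higher in KO within each replicate number. Il23r made up most of each innate lymphoid sum. The part of these markers in the Ahrr difference was not tested.

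**Figure D1:**
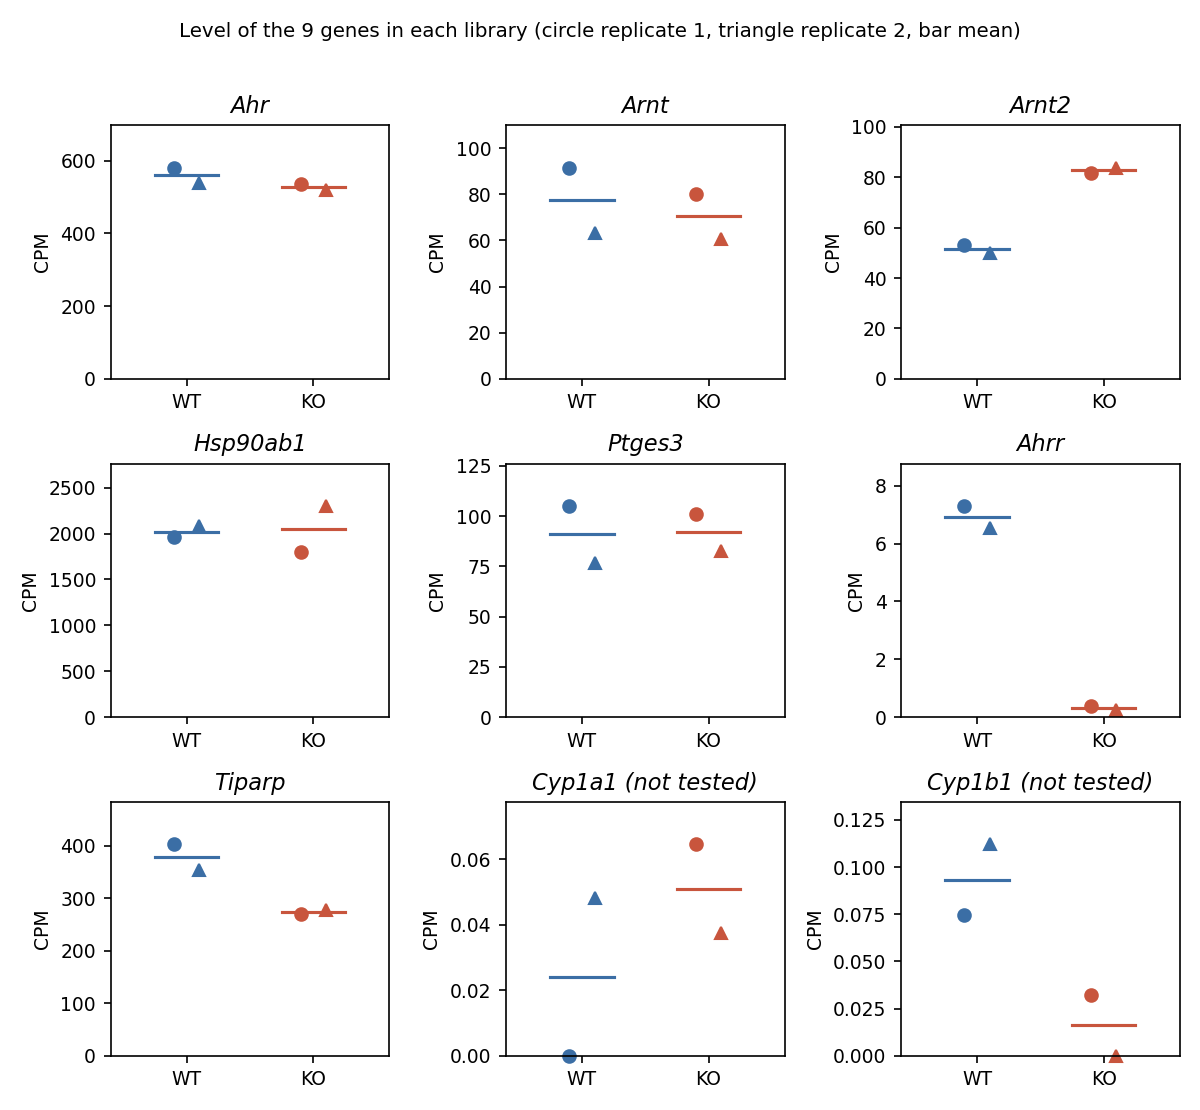
Level of each of the 9 genes in every library, in CPM on a linear axis from 0 (circle, replicate 1; triangle, replicate 2; bar, mean of 2 libraries). Ahrr stands at 7.3 and 6.55 CPM in WT and 0.391 and 0.265 in KO, Arnt2 is higher in both KO libraries, and Tiparp is lower in both. For Arnt and Ptges3 the 2 replicates differ more than the genotypes do.

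Tiparp encodes an ADP-ribosylase that modifies the receptor and promotes its breakdown. It lies on the plus strand of chromosome 3 from 65332332 to 65359067 (mm9). Tiparp stood at 403 and 354 CPM in WT and at 271 and 278 in KO. The groups did not overlap, yet the gap between them was small beside that of Ahrr. Mean levels were 379 ± 35.2 and 274 ± 4.49 CPM (SD, n = 2), and the log2 fold change was -0.46 ± 0.10 with a 95% interval of -0.71 to -0.22 (edgeR). Between libraries of the same replicate number, which are of similar depth, the log2 ratio was -0.57 for number 1 and -0.35 for number 2. The authors' deposited table put Tiparp under 0.05 (adjusted p = 0.0116), whereas DESeq2 (0.0723) and edgeR's quasi-likelihood test (1.00) did not. A gene of the opposite strand, 4931440P22Rik, overlaps the first 970 bases of Tiparp and held 2.08% to 3.49% as many counts.

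Cyp1a1 and Cyp1b1 were almost silent in these cells. Cyp1a1 (chromosome 9, 57545420 to 57551629, mm9) had 0 and 3 counts in WT and 2 and 2 in KO. Cyp1b1 (chromosome 17, 80106234 to 80114401, mm9) had 2 and 7 counts in WT and 1 and 0 in KO. Every Cyp1a1 count lay at or under the 3 counts that a count of 0 allows, and only WT replicate 2 exceeded that number for Cyp1b1. The pooled Cyp1a1 ratio of KO to WT was 1.41, with an exact 95% counting interval of 0.238 to 9.62, so a difference was not detectable at this depth in either direction. For Cyp1b1 the pooled ratio was 0.117 (0.00268 to 0.848), which rests on 9 WT counts and 1 KO count, 7 of them in 1 library, and covers counting error only. The Cyp1b1 ratio was 0 without KO replicate 1 and 0.32 without KO replicate 2. DESeq2, run without the count filter of edgeR, gave both genes an adjusted p of 1.00.

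Windows of 250 bases before the annotated start are shown for the induced genes and were searched for the letters that the receptor and Arnt bind. They come from RefSeq (GRCm38.p6, while gene positions here are mm9), and 7 of the 9 genes had one. Both strands were searched for GCGTG, and capitals mark each match, which reads as the reverse complement where it lies on the other strand. The same letters are also a form of the hypoxia response element core, so a match cannot be assigned to either. At least 1 match occurred in 28.2% of 32851 such windows and 3 or more in 2.77%. The shares given here are over all windows and are not matched for G and C content. That content was 60.4% for Ahrr, 75.2% for Tiparp, 53.6% for Cyp1a1 and 58.0% for Cyp1b1. Ahrr (chr13:74292332-74292581, minus strand) had 3 matches, 1 of which was preceded by T and any base, a longer form found in 4.1% of windows. Tiparp (chr3:65528197-65528446, plus strand), Cyp1a1 (chr9:57697363-57697612, plus strand) and Cyp1b1 (chr17:79715062-79715311, minus strand) had 1 match each.
Ahrr: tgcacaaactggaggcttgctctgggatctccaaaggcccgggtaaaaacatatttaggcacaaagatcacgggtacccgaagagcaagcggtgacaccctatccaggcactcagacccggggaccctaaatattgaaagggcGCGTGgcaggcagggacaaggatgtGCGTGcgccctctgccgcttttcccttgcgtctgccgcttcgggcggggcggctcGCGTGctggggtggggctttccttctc
Tiparp: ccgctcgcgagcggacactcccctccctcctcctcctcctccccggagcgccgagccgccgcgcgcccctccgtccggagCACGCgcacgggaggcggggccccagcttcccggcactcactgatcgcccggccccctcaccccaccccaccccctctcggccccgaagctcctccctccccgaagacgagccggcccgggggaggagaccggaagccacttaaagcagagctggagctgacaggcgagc
Cyp1a1: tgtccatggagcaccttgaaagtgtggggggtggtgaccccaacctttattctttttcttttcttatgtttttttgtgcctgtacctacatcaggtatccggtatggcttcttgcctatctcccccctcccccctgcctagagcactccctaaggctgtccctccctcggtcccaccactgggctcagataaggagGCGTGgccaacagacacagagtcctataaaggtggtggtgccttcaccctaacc
Cyp1b1: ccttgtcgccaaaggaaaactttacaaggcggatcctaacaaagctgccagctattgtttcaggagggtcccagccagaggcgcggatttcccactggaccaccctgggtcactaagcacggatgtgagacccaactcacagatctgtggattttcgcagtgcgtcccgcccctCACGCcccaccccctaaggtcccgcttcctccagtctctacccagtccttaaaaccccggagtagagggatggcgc

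In the Ahrr window the 3 matches began 107, 82 and 27 bases before the start, all on the strand of the gene. The single matches began 170 bases before the start in Tiparp, 54 in Cyp1a1 and 76 in Cyp1b1. A match is a description of the letters and does not show that the receptor binds there. Among the other windows, Ptges3, whose level did not differ beyond its spread, had 2 matches, Arnt had 1 and Arnt2 had 0.

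Counts over the receptor gene did not report its loss. Ahr is annotated on the minus strand of chromosome 12 from 36182646 to 36219710 (mm9). It stood at 581 and 539 CPM in WT and at 536 and 518 in KO. The higher KO library lay just under the lower WT library, so the groups did not overlap, but the gap was smaller than the spread within WT. The log2 fold change was -0.09 ± 0.09, with a 95% interval of -0.31 to 0.14 and an adjusted p of 1.00 (edgeR). That interval allows a KO level of 0.807 to 1.1 times the WT level. A floxed allele usually loses only some exons, and a shortened transcript can still be counted over the whole gene. The labels say neither which part was removed nor what the null allele transcribes. Counts are per gene, and how complete the deletion was in these cells was not tested. The count therefore tests neither the deletion nor the sample labels.

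Counts of a gene set against those of Ahr in the same library form a ratio in which library scaling cancels. Ahr was picked for its alike counts in these data, although it is the targeted gene. The ratios reuse the same counts and are no independent test. Annotated gene lengths are the same in every library, but such a ratio is not a relative abundance of the 2 genes. The Ahr transcript may also be shortened where an allele lost exons, and only WT retained the + allele. Ahr counts per transcript may therefore differ between genotypes, which limits how far these ratios can be compared between them. Per 1000 Ahr counts, Ahrr had 12.6 and 12.2 counts in WT against 0.73 and 0.511 in KO, a 19.9-fold difference of the means. Tiparp had 695 and 656 per 1000 Ahr counts in WT and 506 and 536 in KO. Arnt2 had 91 and 92.4 in WT and 153 and 162 in KO, whereas Arnt had 158 and 117 in WT and 149 and 117 in KO. Ahrr, Tiparp and Arnt2 did not overlap between genotypes on this scale, and Arnt did. In CPM, 27% of all tested genes did not overlap, while the share per 1000 Ahr counts was not computed.

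**Figure D2:**
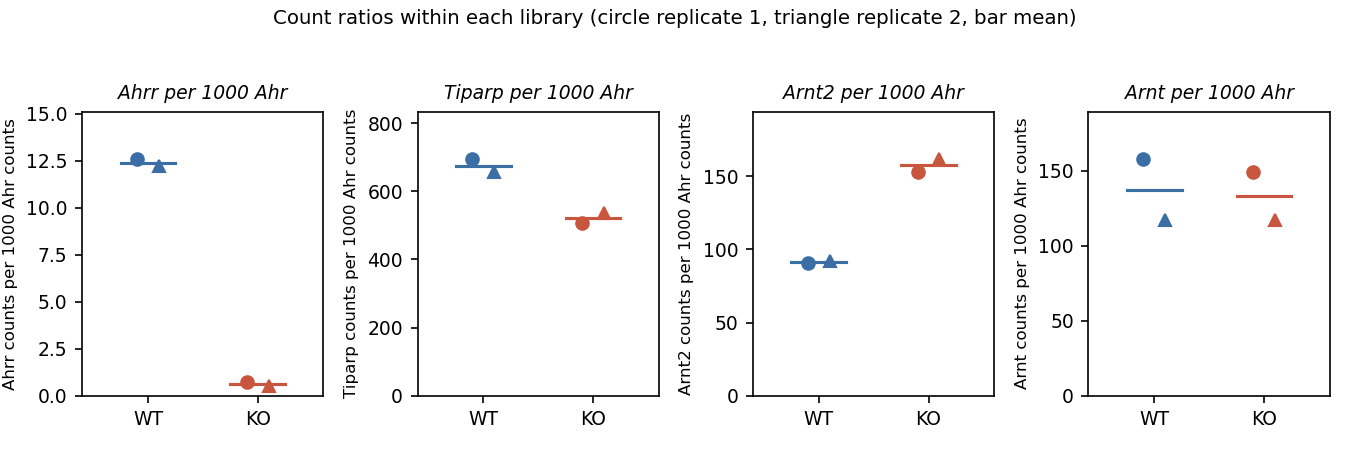
Counts of Ahrr, Tiparp, Arnt2 and Arnt per 1000 Ahr counts in the same library, each on a linear axis from 0 (circle, replicate 1; triangle, replicate 2; bar, mean of 2 libraries). Ahrr has means of 12.4 in WT and 0.62 in KO, Arnt2 lies at 91 and 92.4 in WT and 153 and 162 in KO, and Arnt overlaps between the genotypes.

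The 2 partner genes behaved differently. Arnt encodes the obligatory partner of the receptor and of the hypoxia factors, and Arnt2 encodes a close relative best known from neurons. Arnt (chromosome 3, 95238310 to 95301162, plus strand, mm9) stood at 91.6 and 63.2 CPM in WT and at 80 and 60.8 in KO. The groups overlapped, and replicate 1 exceeded replicate 2 by 1.45-fold in WT and 1.32-fold in KO, more than the genotypes differed. The log2 fold change of Arnt was -0.14 ± 0.22 (95% interval -0.69 to 0.42, edgeR), and its direction turned without WT replicate 1 or without KO replicate 2.

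Arnt2 (chromosome 7, 91394791 to 91558469, minus strand, mm9) stood at 52.9 and 49.8 CPM in WT and at 81.8 and 83.8 in KO. Within each genotype the 2 libraries nearly coincided, and both KO libraries were higher. Means of 51.3 ± 2.2 and 82.8 ± 1.4 CPM (SD, n = 2) gave a 1.61-fold difference, or a log2 value of 0.69 ± 0.10 with a 95% interval of 0.45 to 0.94 (edgeR). The log2 ratio between same-numbered libraries was 0.63 for number 1 and 0.75 for number 2. DESeq2 called Arnt2 higher (adjusted p = 2.01e-04), a call that was lost without any 1 library (0.104 to 1.00). In edgeR's quasi-likelihood test the adjusted p was 0.666 with the filter and 0.0166 without it, and the authors' deposited table gave 0.0565. The ratio of Arnt2 to Arnt counts, in which library scaling cancels, was 577 and 787 per 1000 in WT and 1020 and 1380 per 1000 in KO. The Arnt2 window before the start, which had no match to GCGTG, is shown beside those of the induced genes (chr7:84410039-84410288, minus strand, GRCm38.p6).
Arnt2: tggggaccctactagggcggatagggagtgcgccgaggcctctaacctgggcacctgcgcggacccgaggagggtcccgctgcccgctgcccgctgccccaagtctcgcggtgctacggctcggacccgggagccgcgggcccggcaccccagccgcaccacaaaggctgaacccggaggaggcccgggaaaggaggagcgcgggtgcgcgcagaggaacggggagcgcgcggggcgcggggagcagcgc

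The chaperone genes were level. Hsp90ab1 (chromosome 17, 45704724 to 45710220, minus strand, mm9) stood at 1960 and 2080 CPM in WT and at 1800 and 2300 in KO, so the WT libraries lay between the KO libraries. Its log2 fold change was 0.02 ± 0.14 (95% interval -0.34 to 0.38, edgeR). Ptges3 (chromosome 10, 127496010 to 127514328, plus strand, mm9) stood at 105 and 76.9 CPM in WT and at 101 and 82.7 in KO, again overlapping. Its log2 fold change was 0.02 ± 0.18 (95% interval -0.44 to 0.47, edgeR). As annotated, 18283 bases of Ptges3 also lie inside Baz2a on the same strand, which held 160% to 204% as many counts, and how shared reads were counted is not stated, which makes the Ptges3 level uncertain. For both chaperone genes the direction turned without single libraries, Hsp90ab1 without WT replicate 1 or KO replicate 2 and Ptges3 without WT replicate 2 or KO replicate 1.

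**Figure D3:**
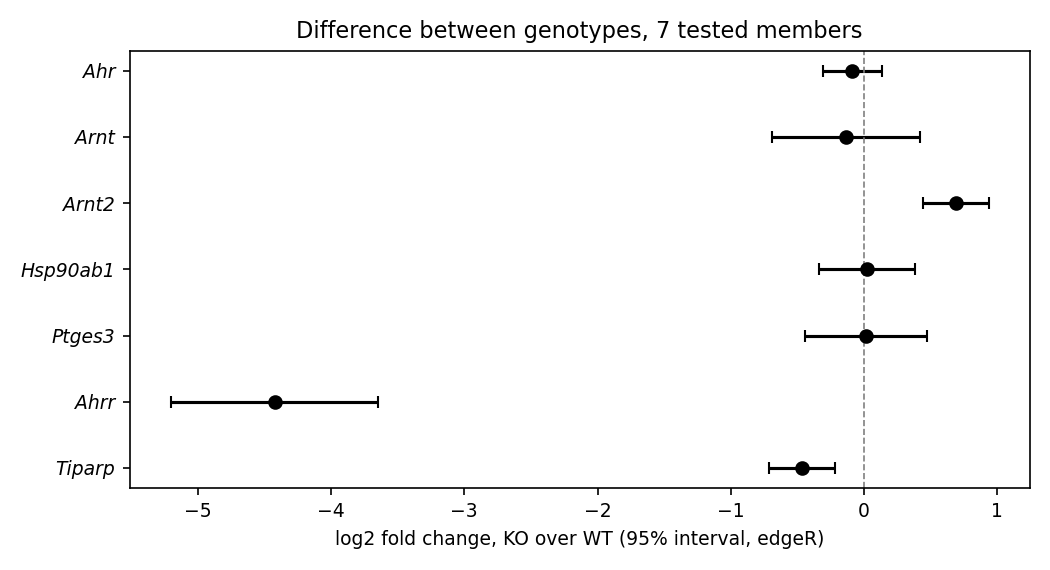
Log2 fold change of KO over WT for the 7 tested genes, with 95% intervals from edgeR's quasi-likelihood fit. The intervals of Ahrr (-5.2 to -3.65), Tiparp (-0.71 to -0.22) and Arnt2 (0.45 to 0.94) lie to one side of 0, and those of Ahr, Arnt, Hsp90ab1 and Ptges3 include 0; no gene passed the adjusted threshold in this fit.

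Read against all genes, edgeR's quasi-likelihood test called 0 of the 7 tested genes and 0% of 14274 genes at an adjusted p under 0.05. At an unadjusted p under 0.05 it held 3 of the 7 (Ahrr, Arnt2 and Tiparp), beside 2.85% of all tested genes (1.64% higher and 1.21% lower). DESeq2 called 2 of the 9 (Ahrr lower and Arnt2 higher), beside 0.267% of 17996 genes (0.167% higher and 0.1% lower). With replicate numbers as a block, edgeR held 3 of the 7 beside 3.21% of genes. Of the 9 genes, 2 (Ahrr and Tiparp) were under 0.05 in the authors' deposited table, as were 0.344% of its 19191 rows, and limma-voom called 0 of the 7 genes and 0% of 14274. Libraries did not overlap between genotypes for 4 of the 7 (Ahrr, Tiparp and Ahr lower, Arnt2 higher), beside 27% of all tested genes (13.5% higher and 13.4% lower). With 2 libraries against 2, an exact permutation test of a single gene cannot give a two-sided p below 0.333.

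Only 2 of the 14274 tested genes had a lower fitted log2 fold change, Prps1l1 and Mrgpra3, named because of that rank, and both had a count of 0 in each KO library, where a fitted value depends on the prior count. The 5 genes whose pattern came nearest to Ahrr, by the root mean square distance of log2 CPM centred on each gene's mean over the 4 libraries, were Unc5b, Rec8, Atp6v0d2, Prr5l and Gzma. The search covered the 12323 tested genes whose mean log2 CPM was not below 0, which leaves out Prps1l1 and Mrgpra3. Their log2 ratios between same-numbered libraries (-4.11 and -3.77, and -3.42 and -3.15) were closer to those of Ahrr (-4.07 and -4.41) than the ratios of Unc5b were (-1.91 and -1.43). Within the search the nearest, Unc5b, was 1.32 log2 units away, at 2.83 and 2.58 CPM in WT and 0.717 and 0.927 in KO. Prr5l, at 9.42 and 10.4 CPM in WT and 3.36 and 3.61 in KO, was called lower by DESeq2 (adjusted p = 5.44e-05, at least 0.0858 without any 1 library). For Arnt2 the nearest were Pdgfb, Adam17, Litaf, Arhgef26 and Nnat, at distances of 0.05 to 0.08. Adam17, a sheddase gene, stood at 174 and 166 CPM in WT and 244 and 266 in KO and was called higher by DESeq2 (adjusted p = 8.02e-04, at least 0.145 without any 1 library), as was Litaf (0.00816, at least 0.104).

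**Figure D4:**
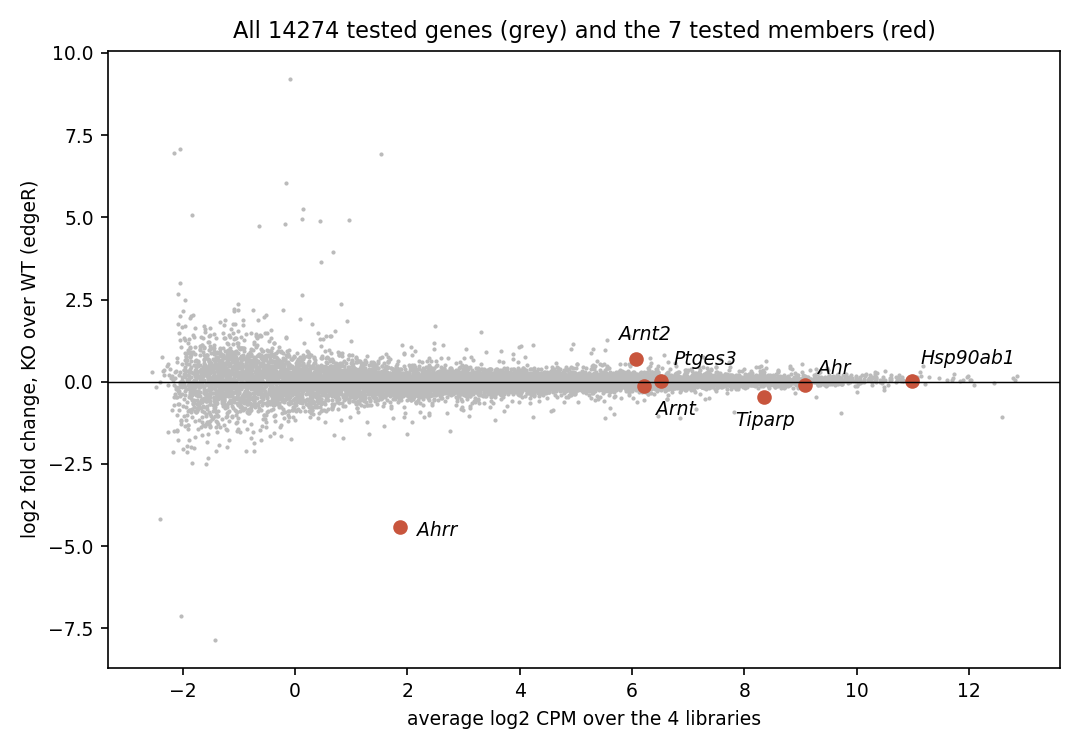
Log2 fold change of KO over WT against average log2 CPM for the 14274 tested genes (grey points) with the 7 tested genes of the receptor system in red (edgeR estimates). Ahrr lies at -4.42, Arnt2 at 0.69 and Tiparp at -0.46, and the other 4 lie between -0.14 and 0.02.

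The wider pathway was read from 7 lists of 114 genes, of which 109 were found and 100 tested. Of these 100 genes, 50 had a higher and 50 a lower estimate, with a median log2 fold change of 0, beside 0.01 over all tested genes. EdgeR's quasi-likelihood test called 0 of the 100, beside 0% of all tested genes. At p under 0.05 before adjustment 3 were higher and 4 lower, beside 1.64% and 1.21% of all tested genes. DESeq2 called 5, Ahrr and Arnt2 from the 9 genes and Gpr15, Kit and Il21, beside 0.267% of 17996 genes. The lists were chosen with earlier results of these data known, so these calls are no test of the pathway.

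Chaperones and co-chaperones of the receptor complex were flat across the list. All 18 were tested, 12 with a higher and 6 with a lower estimate, a median of 0.02 and a range of -0.1 to 0.09. Fkbp5, Dnaja1 and Hspa8 had the lowest p beside the 2 described above, with log2 fold changes of -0.1 ± 0.14, -0.08 ± 0.10 and 0.08 ± 0.10 (edgeR). No gene of the list had libraries that separated by genotype, whereas 27% of all tested genes did. Hspa1a and Hspa1b are near-identical copies whose reads cannot be assigned with certainty.

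In the bHLH-PAS family, the transcription factors that share the fold of Ahr and Arnt, 18 of 22 genes were tested, with a median of 0.04. Beside Ahrr and Arnt2, the lowest p belonged to Epas1, which encodes the hypoxia factor HIF-2 alpha and also pairs with Arnt. Epas1 stood at 321 and 208 CPM in WT and at 385 and 346 in KO, which is 0.47 ± 0.21 on the log2 scale and which neither edgeR (adjusted p = 1.00) nor DESeq2 (1.00) called. WT replicate 1 weighed heavily on Epas1, since without it the estimate was 0.81 and DESeq2 called the gene higher (adjusted p = 0.0034). The estimate was 0.19 without WT replicate 2. Npas4 and Per3 had 0.48 ± 0.49 and -0.19 ± 0.21, the highest and lowest estimates of the list beside the members Arnt2 and Ahrr.

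Among 15 coregulators and degradation factors, 5 estimates were higher and 10 lower, with a median of -0.04 and a range of -0.19 to 0.06. Rb1, Ncoa7 and Nrip1, a corepressor gene, had the lowest p, with log2 fold changes of -0.19 ± 0.08, -0.17 ± 0.13 and -0.14 ± 0.10 (edgeR, adjusted p = 1.00 for each). Of the 16 ADP-ribosylase genes, Tiparp had the lowest estimate, and the other 15 ran from -0.34 to 0.14 with a median of -0.04. Parp16, Parp3 and Zc3hav1 had -0.34 ± 0.24, -0.15 ± 0.12 and 0.14 ± 0.10, and neither edgeR nor DESeq2 called them.

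The list of xenobiotic targets held 22 genes, of which 18 were found and 15 tested. Without Ahrr and Tiparp, 7 of the remaining 13 had a higher and 6 a lower estimate, with a median of 0.02, and edgeR, DESeq2 and the authors' deposited table called none of them. Nfe2l2, the gene of the antioxidant regulator Nrf2, stood at 75.3 and 54.3 CPM in WT and at 52.4 and 40.5 in KO, or -0.48 ± 0.20 on the log2 scale (edgeR adjusted p = 1.00, 0.141 in the authors' deposited table). Its estimate ran from -0.70 without WT replicate 2 to -0.23 without WT replicate 1. Xdh and the metallothionein gene Mt1 had -0.24 ± 0.18 and 0.36 ± 0.25, and both also hung on the WT libraries, with -0.43 and 0.04 without WT replicate 2 and -0.02 and 0.72 without WT replicate 1. The Ugt1a genes share exons, so that their single values are uncertain.

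Of 10 T cell genes linked to Ahr, 5 had a higher and 5 a lower estimate. The homing receptor gene Gpr15 was lower, at 118 and 119 CPM in WT and 55.1 and 59.7 in KO (DESeq2 adjusted p = 9.48e-13, at most 5.02e-04 without any 1 library). Kit, a receptor tyrosine kinase gene of progenitors, mast cells and innate lymphoid cells, stood at 12.3 and 10.7 CPM in WT and 6.16 and 4.92 in KO, or -1.05 ± 0.18 on the log2 scale. DESeq2 called Kit lower (adjusted p = 0.0294, at least 0.263 without any 1 library), and the authors' deposited table gave 0.00738. The 6 innate lymphoid markers summed to 21.6 and 37.1 CPM in WT and 13.5 and 25 in KO, with 0 of the 4 tested estimates higher. Most of each sum was Il23r, at 17.1 and 27.8 CPM in WT and 10.2 and 17.9 in KO. The part of these markers in the Kit difference was not tested. Il21 was higher, at 7.15 and 7.49 CPM in WT and 13.5 and 13.7 in KO (DESeq2 adjusted p = 0.0268, 1.00 without any 1 library). EdgeR's quasi-likelihood test called 0 of the 10 genes, with an adjusted p of 0.293 for Gpr15, 0.856 for Kit and 0.666 for Il21. The authors' deposited table gave 8.24e-08 for Gpr15 and 0.181 for Il21. DESeq2 did not call the other 7 genes. Entpd1, the gene of the ectonucleotidase CD39, stood at 60.6 and 72.3 CPM in WT and at 85.1 and 92.3 in KO, or 0.42 ± 0.12 on the log2 scale (edgeR adjusted p = 1.00), without overlap. The cytokine gene Il22 had -0.42 ± 0.18 and Prdm1 0.19 ± 0.10, while Il10, Maf, Socs2 and Ikzf3 lay between -0.09 and 0.02 (edgeR).

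The list of tryptophan and ligand handling held no gene called by edgeR or DESeq2. Of 13 genes 12 were found and 10 tested, 4 with a higher and 6 with a lower estimate and a median of -0.08. Kmo, Tph1 and Slc36a4 had log2 fold changes of -0.39 ± 0.23, -0.46 ± 0.40 and -0.21 ± 0.11 (edgeR), within a list range of -0.49 to 0.36. Tph1 ran from -1.06 without KO replicate 2 to -0.07 without KO replicate 1. Ido1 and Ido2, which start the kynurenine route, had 0 to 6 and 0 to 1 counts per library.

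**Figure D5:**
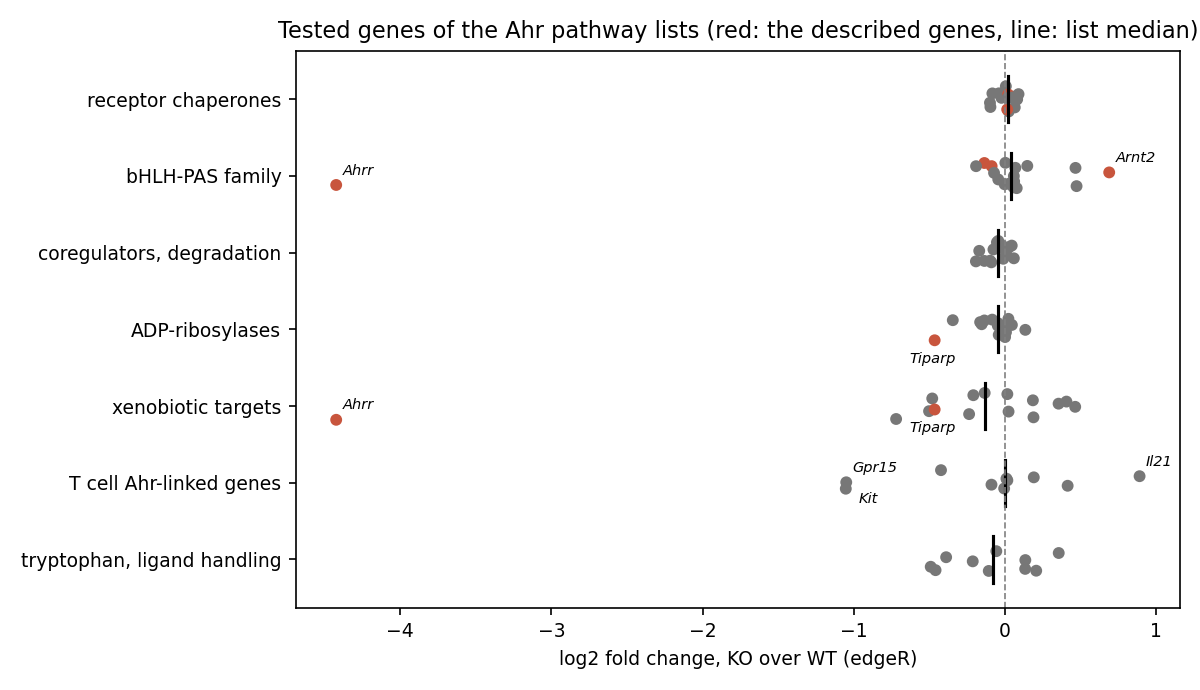
Log2 fold change of KO over WT for the tested genes of 7 pathway lists (points; red, the 9 genes where tested; black line, list median; edgeR estimates, vertical jitter only). List medians lie between -0.13 and 0.04, and Ahrr lies at -4.42. The tested genes next farthest from 0 are Gpr15 and Kit at -1.05, Il21 at 0.89, Nqo1 at -0.72 with a standard error of 0.55 and Arnt2 at 0.69.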

How the data were processed

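RNA-seq was done on 4 of the 8 samples, and 4 ATAC-seq samples are not used here. Per the labels' protocols, ribosomal RNA was removed and 50 bp single-end reads were sequenced over 2 lanes. The authors deposited raw counts per gene and library without normalization, and an adjusted p-value per gene, read here as that of KO against WT, the 2 groups in the table. TopHat2, DESeq and the build mm9 are named in the submitters' processing notes, without versions. Which tool and annotation produced the counts, and whether strand was used, is not given in the sources used here. Reads of overlapping or antisense genes therefore cannot be told apart.

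Genotypes were compared with edgeR 4.0.16 under R 4.3.3 (quasi-likelihood F-test in its older form, genotype as the only term, filterByExpr, TMM, Benjamini-Hochberg over 14274 genes, threshold 0.05). Its standard error is the log2 fold change divided by the square root of F. DESeq2 1.42.0 (17996 genes with an adjusted p) and limma 3.58.1 (voom) were alternatives, as were other scalings and filters, the replicate number as a block and leaving out each library. Log2 ratios between same-numbered libraries used a prior count of 2. Marker sums used library totals without TMM factors. Floors and exact 95% intervals describe counting error alone, as there were no molecular identifiers.

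Groups follow the labelled genotype, and columns were assigned through sample titles. Calls named in the text come from fits without the block unless it is named. The 9 genes and all lists were chosen with earlier results of these data known. Genes named from the lists were those called by edgeR, DESeq2 or the authors' table and the 3 of lowest p per list, together with the highest gene of each marker list and the 5 genes nearest in pattern to Ahrr and to Arnt2. The remaining T cell list genes, Nqo1, Ido1, Ido2, Krt18, Col3a1 and epithelial and innate lymphoid markers at 0 were named after their values were seen. So were the genes next to Ahr and those at 0 in KO. The scripts were tested on simulated counts.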

Additional observations from a re-analysis of the deposited data

How the results depend on the processing

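The number of genes called was 0 in edgeR's quasi-likelihood test and remained 0 with DESeq2 size factors, upper-quartile factors, a filter at 2 CPM in 2 libraries, limma-voom and the newer quasi-likelihood method. It was 52 without a filter, 48 with DESeq2 and 0 to 2 when a library was left out. Of the 9 genes, 2 were called without a filter (Ahrr and Arnt2), 2 with DESeq2 and 0 to 1 when a library was left out. In the 4 DESeq2 fits without a library, which were chosen after seeing the data, the Ahrr log2 fold change ran from -4.72 to -4.14. Ahrr, Tiparp, Arnt2 and Ahr kept their direction in all 12 alternatives, with log2 fold changes of -4.7 to -4.13, -0.56 to -0.37, 0.65 to 0.73 and -0.14 to -0.03. With a library left out, the estimates spanned 0 for Arnt (-0.38 to 0.15), Hsp90ab1 (-0.16 to 0.18), Ptges3 (-0.19 to 0.25), Dnaja1 (-0.19 to 0.028) and Fkbp5 (-0.26 to 0.037). Of other uncalled list genes, the ranges were 0.09 to 0.93 for Npas4, -0.30 to -0.10 for Per3, -0.28 to -0.05 for Ncoa7, -0.23 to -0.04 for Nrip1, -0.50 to -0.17 for Parp16, -0.23 to -0.07 for Parp3, 0.05 to 0.23 for Zc3hav1 and 0.02 to 0.14 for Hspa8. Fits without a library leave 1 in a genotype, assumed to vary like the others. The causes of these differences were not tested.

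The labels do not say that same-numbered libraries share an origin, but their deviations from the genotype means correlated at 0.641 across genes. A replicate block raised the edgeR calls to 458 genes, among them 3 of the 9 (Ahrr, Arnt2 and Tiparp), on 1 residual degree of freedom. It also gave Epas1 (adjusted p = 2.74e-05), Nfe2l2 (9.61e-05) and Entpd1 (2.24e-04), which edgeR and DESeq2 did not call with all libraries and no block. Depth limits Cyp1a1 and Cyp1b1, with 7 and 10 counts in all.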

Other observations

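Among the 5 genes of the table on either side of Ahr on chromosome 12, 1 stood apart. Prps1l1, a relative of the nucleotide synthesis gene Prps1 (35669433 to 35671108, plus strand, mm9), lies 512 kb from Ahr and held 20 and 37 counts in WT and 0 in each KO library. Prps1l1 had a pooled WT level 18-fold a floor of 3 counts over both KO libraries, a ratio that leaves out counting error in WT. DESeq2 called it lower (adjusted p = 0.0447), but not without KO replicate 1 (0.517) or KO replicate 2 (1.00), and it gave no adjusted p without either WT library. The authors' deposited table gave 0.0292 and edgeR's quasi-likelihood test an adjusted p of 0.856. Snx13, between Prps1l1 and Ahr, had a log2 fold change of -0.25 ± 0.12, Tspan13 on the other side -0.12 ± 0.09 and Hdac9 -0.47 ± 0.32 (edgeR), none of them called by edgeR or DESeq2. Mrgpra3, on chromosome 7, held 12 and 23 counts in WT and 0 in each KO library, with a pooled WT level 11-fold the same floor. Neither DESeq2 (adjusted p = 0.448) nor edgeR (1.00) called it. These genes were chosen after their values were seen.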
